A study of Mus musculus with 28 samples.

Results

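Core circadian clock genes, 10 of the 32594 genes in the deposited table, were followed in the mouse pituitary after paradoxical sleep deprivation (PSD) and acute restraint. They were chosen by name: Per1, Per2, Per3, Cry1, Cry2, Arntl, Clock, Nr1d1, Nr1d2 and Dbp. RNA-seq was carried out on whole pituitaries of 28 C57BL/6J mice, which were 8 weeks old on arrival. PSD lasted 12 h on columns over water, where the muscle atonia of REM sleep wakes the animal. This method also removes part of non-REM sleep. Restraint lasted 20 min, and restrained mice were killed 10 min after it ended. PSD mice were sampled 18 h after PSD had ended. The female groups were home cage control, restraint, PSD, and PSD with restraint, with 4 mice in each. The male groups held 4 controls, 2 restrained mice, 3 PSD mice and 3 mice with PSD and restraint. All mice, controls included, had been habituated to the water tank.

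In the molecular clock, the transcription factors CLOCK and ARNTL (BMAL1) bind E-box elements and switch on the Per and Cry genes, whose proteins return to the nucleus and repress CLOCK and ARNTL. The same factors drive Nr1d1 and Nr1d2, which encode the REV-ERB nuclear receptors that repress Arntl, and Dbp, an activator that acts through D-box elements. The pituitary keeps such a clock outside the brain's pacemaker. Per1 can also be switched on within minutes by cAMP signalling and by glucocorticoids, through elements other than the E-box. Each mouse gave a single time point, so a change in level and a shift of the daily rhythm cannot be told apart. The labels place collection at the daily low point of corticosterone. The hour at which each single mouse was killed was not used here, and its part in the results was not tested.

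Promoter sequences are shown for Per1, Cry2, Nr1d1 and Per3, the members with a matched window whose level differed between treatments or sexes. In the GENCODE annotation of the same mouse assembly (mm10), Per1 spans 69095217 to 69109960 on the plus strand of chromosome 11 and Nr1d1 spans 98767932 to 98775333 on its minus strand. Cry2 lies on chromosome 2 (92403646 to 92434043), Per3 on chromosome 4 (151003652 to 151044665) and Per2 on chromosome 1 (91415982 to 91459324), all on the minus strand. RefSeq start sites (build GRCm38.p6) gave 13 windows for 9 of the 10 members. Each sequence is the 250 bases before a start site, written 5′ to 3′ on the gene's strand, and capitals mark the motifs searched on both strands.
Per1, upstream start (chr11:69098699-69098948, + strand): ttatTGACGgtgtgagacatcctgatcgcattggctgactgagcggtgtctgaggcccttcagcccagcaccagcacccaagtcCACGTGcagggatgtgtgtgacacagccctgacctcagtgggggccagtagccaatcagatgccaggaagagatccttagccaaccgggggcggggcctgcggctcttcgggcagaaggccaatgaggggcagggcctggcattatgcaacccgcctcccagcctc
Per1, downstream start (chr11:69099902-69100151, + strand): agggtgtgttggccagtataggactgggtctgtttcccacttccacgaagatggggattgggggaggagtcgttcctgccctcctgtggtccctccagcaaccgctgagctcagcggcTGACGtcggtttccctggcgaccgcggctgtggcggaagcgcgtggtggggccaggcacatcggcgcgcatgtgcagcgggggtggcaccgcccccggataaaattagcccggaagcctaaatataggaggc
Cry2 (chr2:92434070-92434319, - strand): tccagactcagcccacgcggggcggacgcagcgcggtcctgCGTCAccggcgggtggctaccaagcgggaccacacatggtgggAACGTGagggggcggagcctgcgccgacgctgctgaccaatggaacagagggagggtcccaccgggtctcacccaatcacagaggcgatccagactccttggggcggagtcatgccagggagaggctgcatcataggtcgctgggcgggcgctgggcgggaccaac
Nr1d1 (chr11:98775378-98775627, - strand): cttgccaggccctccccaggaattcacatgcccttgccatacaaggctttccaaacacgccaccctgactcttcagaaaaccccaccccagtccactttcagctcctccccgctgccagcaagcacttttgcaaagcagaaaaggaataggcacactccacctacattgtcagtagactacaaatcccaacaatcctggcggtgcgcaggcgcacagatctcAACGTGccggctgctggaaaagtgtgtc
Per3 (chr4:151044666-151044915, - strand): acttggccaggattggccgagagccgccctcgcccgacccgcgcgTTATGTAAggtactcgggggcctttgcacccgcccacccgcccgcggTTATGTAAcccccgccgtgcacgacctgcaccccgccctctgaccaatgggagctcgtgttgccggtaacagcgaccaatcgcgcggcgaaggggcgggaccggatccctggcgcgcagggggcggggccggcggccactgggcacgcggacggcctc
The Per1 window at the upstream start held an E-box (CACGTG) from -166 to -161, counted back from the base before the start, and the TGACG core of a cAMP response element (CRE) from -246 to -242. The downstream Per1 window held the TGACG core from -132 to -128. In Cry2 the capitals mark the CRE core and a variant E-box (CACGTT, here read on the other strand), and in Nr1d1 a variant E-box from -28 to -23. Per3 carried a pair of D-boxes (TTATGTAA), the element bound by DBP and NFIL3. Cry1, whose sequence is not printed, held an E-box, a variant E-box and a CRE core before its start, and a REV-ERB core (TAGGTCA) lay past the start in 1 window of Arntl. Across all 32851 windows, each with 250 bases before and 50 after a start, the E-box was found in 7.15%, the variant E-box in 4.68%, the CRE core in 20.8%, the full CRE (TGACGTCA, which contains the core) in 1.79%, the D-box (TTATGTAA or TTACGTAA) in 1.06% and the REV-ERB core (TAGGTCA or TGGGTCA) in 6.45%. A match describes letters and is not evidence of binding.

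The libraries held 14024465 to 52948531 counts (median 33389717), and growth hormone, prolactin and Pomc transcripts took 24.8% to 34.3% of them. All 9 anterior pituitary markers were detected in every gland. Male control mouse 1 had the lowest sum over the 6 neurointermediate lobe markers, 380 CPM against a median of 1844 CPM. Female PSD mouse 1 had the highest sum over 8 forebrain markers, 128 CPM against a median of 43.1 CPM, with Neurod6 at 0 in 15 mice. Nr4a1 was among 4 immediate early genes listed to check the restraint labels. It ranged from 441 to 1255 CPM in the 13 restrained mice and from 13.6 to 471 CPM in the 15 others. The mouse at 471 CPM was male PSD mouse 3, which is labelled as not restrained. Fos, Egr1 and Junb, the others listed, overlapped between restrained and unrestrained females. Fos averaged 31.0 CPM in control females and 17.5 CPM in restrained females. The 4 genes summed to 764 CPM in unrestrained female PSD mouse 2, above 706 and 708 CPM in restrained female mice 1 and 3. Nr4a1 itself was at most 92.3 CPM in female PSD mice. Changes of Per1 and Cry2 with PSD alone, and with restraint within PSD where males enter, are given with and without male PSD mouse 3.

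All 10 members passed the filter on low counts in every fit. Levels between genes were compared in the 8 home cage controls as CPM per kilobase of the union of all annotated exons. Nr1d2 stood highest at 25.6 ± 2.55 (SD, n = 8), followed by Dbp at 18.0 ± 3.07, Per3 at 15.2 ± 3.42 and Per1 at 12.1 ± 3.67. Cry2 (9.80 ± 1.65), Nr1d1 (8.22 ± 1.45), Cry1 (6.62 ± 0.890) and Per2 (6.07 ± 0.749) formed the middle of the order. The activators Clock (4.76 ± 0.337) and Arntl (2.82 ± 0.348) were lowest by this measure. Neighbours in this order from Dbp to Nr1d1, and Cry1 with Per2, differed by less than the larger of their SDs, and the order was not tested. The place of Clock depends on its exon union of 13.7 kb, the longest of the members. Before division by length, controls averaged 65.3 CPM for Clock, 67.9 CPM for Per1 and 35.6 CPM for Per2. Arntl was lowest there too, at 21.2 CPM, next to Cry1 at 22.1 CPM. Per1 varied most over the 28 mice, with a highest to lowest CPM ratio of 6.40, against 1.38 in both Clock and Nr1d2.

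**Figure D1:**
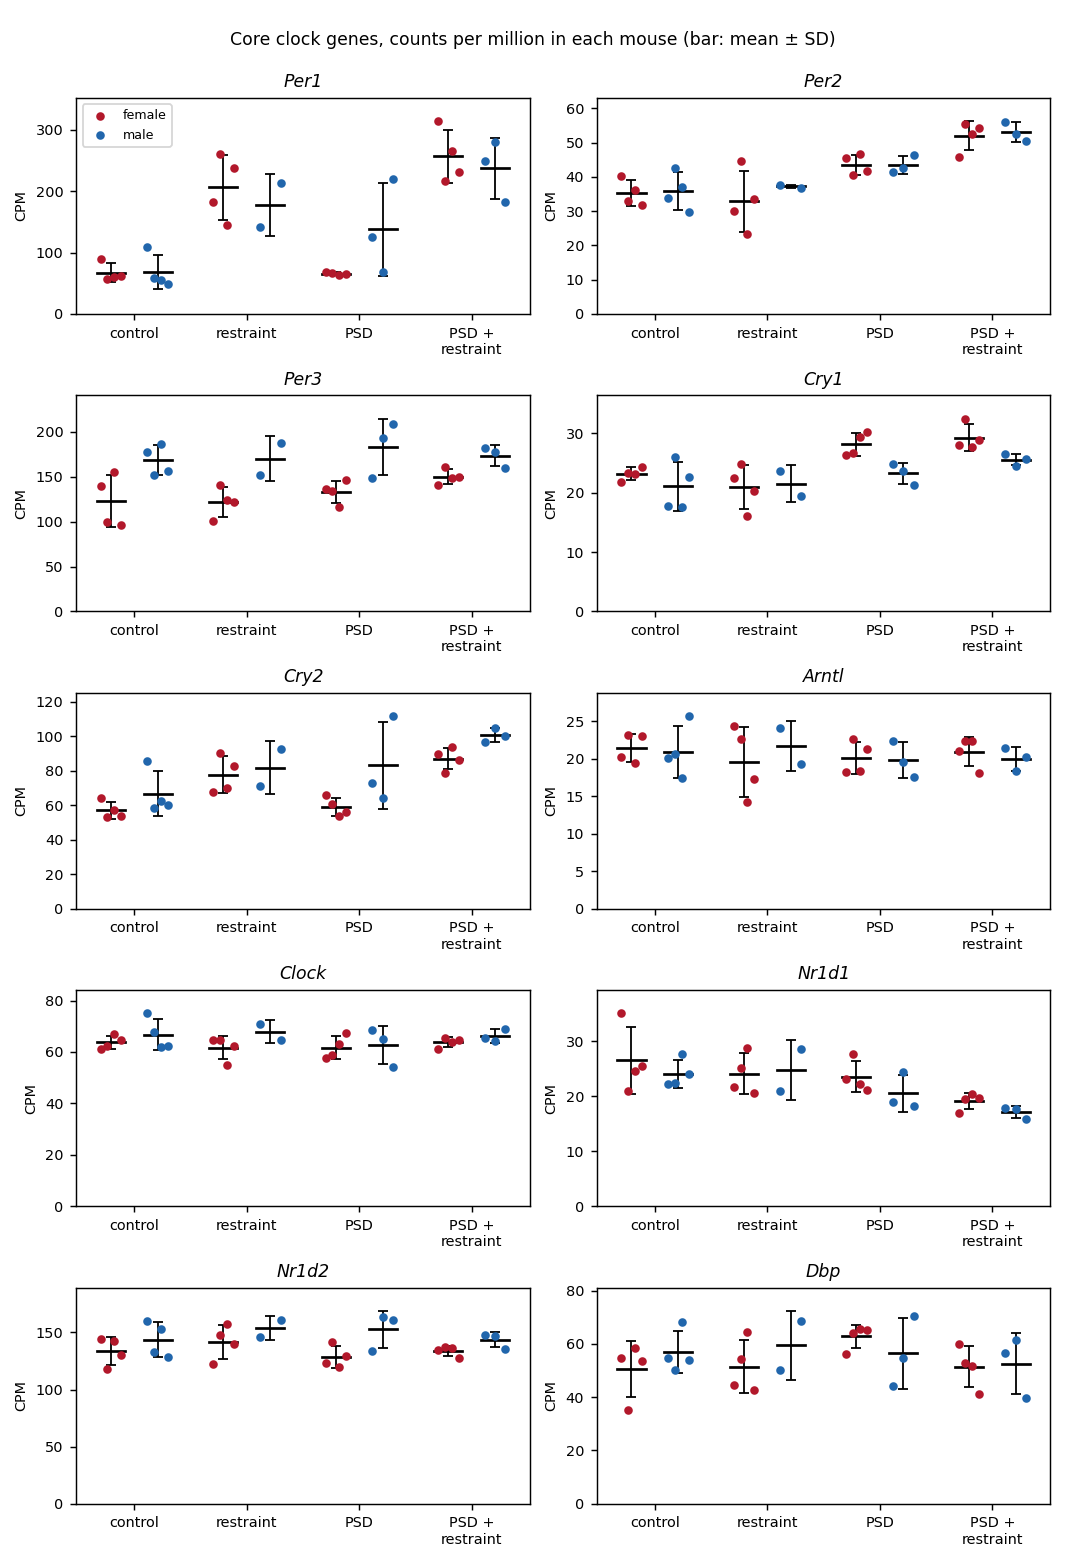
CPM of each member (linear axis from 0) in each mouse by treatment, red for females and blue for males, with bars for the group mean ± SD. Per1 rises from 49.1 to 109 CPM in controls to 183 to 314 CPM after PSD with restraint, whereas Clock and Nr1d2 stay within a ratio of 1.38 over all mice.

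Per1, a light- and stress-responsive repressor of the loop, showed the largest change among the members. In control females it was at 90.0, 57.2, 61.0 and 61.6 CPM, and in restrained females at 183, 260, 144 and 238 CPM. Every restrained female lay above every control female, and the log2 fold change was 1.62 ± 0.17 (SE, a 3.07-fold rise; adjusted p = 0.000275, edgeR quasi-likelihood test with Benjamini-Hochberg adjustment over all genes tested). In bulk tissue, a change in the number of expressing cells and in RNA per cell cannot be told apart. The share of all genes called, meaning an adjusted p of at most 0.05 and an absolute log2 fold change of at least 0.32, was 0.543% for this comparison, and 2 of the 10 members were called.

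Male controls were at 109, 59.2, 55.8 and 49.1 CPM for Per1, and the 2 restrained males at 142 and 213 CPM. These groups did not overlap either, yet the log2 fold change of 1.38 ± 0.38 was not called (adjusted p = 0.352, with an interval of 0.57 to 2.19 at 95%). No member was called in this comparison, in which 0.296% of all genes were. Females responded by 0.24 ± 0.43 more than males on the log2 scale, so a sex difference was not detectable with these groups. In the model of all mice with sex as a term, restraint raised Per1 by 1.58 ± 0.24 (adjusted p = 0.000185), the only member called where 1.14% of all genes were called.

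After PSD alone, Per1 in females was at 68.0, 67.4, 62.7 and 65.4 CPM. These values lay within the control range, with a log2 fold change of -0.03 ± 0.17 (interval -0.39 to 0.34). Males were at 126, 69.1 and 219 CPM, and the male log2 fold change of 1.01 ± 0.34 was not called (adjusted p = 0.427). The highest of the 3 was mouse 3, whose Nr4a1 lay in the restrained range, and without it the male log2 fold change was 0.51 ± 0.32 (adjusted p = 0.888). The sex difference of the PSD response, -1.04 ± 0.40 for females relative to males, did not pass the adjusted threshold (adjusted p = 0.378), and was -0.54 ± 0.37 without that mouse. In all mice Per1 changed by 0.50 ± 0.23 with PSD (adjusted p = 0.257), and by 0.18 ± 0.18 without male PSD mouse 3.

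With PSD and then restraint, Per1 reached 314, 216, 266 and 231 CPM in females and 249, 280 and 183 CPM in males. Both sexes lay above their controls in every mouse. The log2 fold change was 1.94 ± 0.18 in females (adjusted p = 6.66e-05), 1.80 ± 0.34 in males (adjusted p = 0.0168) and 1.89 ± 0.23 in all mice (adjusted p = 3.39e-06). The male call was lost without control mouse 3, control mouse 4, PSD with restraint mouse 1 or PSD with restraint mouse 2, with adjusted p up to 0.0772. Under the DESeq2 settings, which shrink fold changes, the male value was 0.45 and the value in all mice 0.91, both still called. The same settings gave 0.72 for restraint and 0.67 for restraint within PSD in all mice, also still called. They gave 0.31 for restraint, 0.24 for PSD and 0.21 for restraint within PSD in males, and 0.24 for PSD and 0.20 for prior PSD among restrained mice in all mice, none of them called. Restraint within PSD raised Per1 by 1.97 ± 0.18 in females (adjusted p = 7.03e-05) and by 1.399 ± 0.24 in all mice (adjusted p = 0.000759, or 1.70 ± 0.20 without male PSD mouse 3). In males the value of 0.78 ± 0.37 was not called, nor was 1.28 ± 0.35 without mouse 3. Between restrained mice with and without prior PSD, Per1 differed by 0.32 ± 0.24 (interval -0.18 to 0.82), which is not a call.

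Cry2, a repressor that binds PER proteins, followed Per1 at a smaller size. Control females were at 64.1, 53.4, 57.4 and 53.6 CPM and restrained females at 67.5, 90.5, 70.2 and 82.9 CPM. The groups did not overlap, and the log2 fold change was 0.45 ± 0.09 (adjusted p = 0.0387). That call was lost in 8 of 16 leave-one-out fits, with adjusted p up to 0.137. In males, Cry2 was at 86.0, 58.3, 62.3 and 60.5 CPM in controls and at 71.0 and 92.6 CPM after restraint, so the groups overlapped. In all mice the restraint value was 0.40 ± 0.11 (adjusted p = 0.0548), past the size limit and just short of the p threshold, and it became called without male control mouse 1, male restrained mouse 2, male PSD mouse 2 or male PSD mouse 3 (adjusted p = 0.00843 without the last).

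Cry2 after PSD alone was at 65.8, 61.0, 53.7 and 56.3 CPM in females and at 73.1, 64.5 and 112 CPM in males, the last again mouse 3. No change was called in either sex. The male log2 fold change with PSD was 0.32 ± 0.18, or 0.05 ± 0.15 without mouse 3, and in all mice it was 0.18 ± 0.10, or 0.04 ± 0.08 without that mouse. After PSD with restraint Cry2 was at 89.7, 78.9, 93.8 and 86.2 CPM in females and at 96.9, 105 and 100.4 CPM in males. All 7 mice lay above the controls of their own sex. The log2 fold change was 0.62 ± 0.09 in females (adjusted p = 0.0026), 0.60 ± 0.18 in males (adjusted p = 0.0985, and called without male control mouse 1 at 0.74 or without male PSD mouse 3 at 0.60) and 0.61 ± 0.10 in all mice (adjusted p = 0.000282). Restraint within PSD raised Cry2 by 0.56 ± 0.09 in females (adjusted p = 0.00699) and by 0.43 ± 0.11 in all mice (adjusted p = 0.0217, or 0.56 ± 0.09 with adjusted p = 0.000182 without male PSD mouse 3). In males the value was 0.28 ± 0.19, or 0.55 ± 0.16 without mouse 3, and neither was called. The call in all mice was lost without female PSD mouse 3, female PSD mouse 4, female PSD with restraint mouse 3 or male PSD mouse 2, with adjusted p up to 0.0608.

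Per2, the partner of Per1 in the repressor complex, had a different pattern. Control females were at 40.4, 32.8, 36.0 and 31.8 CPM and restrained females at 30.0, 44.5, 23.4 and 33.6 CPM. The 2 groups overlapped, and restraint gave -0.04 ± 0.09 in all mice (interval -0.24 to 0.15). After PSD alone females were at 45.4, 40.5, 46.6 and 41.8 CPM, each above every control, and males at 41.4, 42.5 and 46.5 CPM against controls at 33.9, 42.7, 37.0 and 29.8 CPM. The log2 fold change with PSD was 0.30 ± 0.09 in all mice and did not pass the threshold (adjusted p = 0.101).

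After PSD with restraint, Per2 was at 45.8, 55.4, 52.6 and 54.2 CPM in females and at 56.2, 52.6 and 50.5 CPM in males. All 7 mice lay above all controls. Per2 rose by 0.57 ± 0.14 in females (adjusted p = 0.0391), 0.57 ± 0.10 in males (adjusted p = 0.0105) and 0.57 ± 0.09 in all mice (adjusted p = 0.000112). The female call was lost in 7 of 16 leave-one-out fits (adjusted p up to 0.124). With the neurointermediate lobe score as a covariate the value was 0.41 (adjusted p = 0.323), and with the forebrain score it was 0.53 (adjusted p = 0.101), neither of them a call. The 6 neurointermediate markers summed to 1224 to 1866 CPM in control females and to 1817 to 2925 CPM in females with PSD and restraint, with none at 0. The 8 forebrain markers, of which 6 could be tested and none was called (median log2 fold change 0.48, all 6 above 0), summed to 38.9 to 50.6 CPM and to 37.2 to 102 CPM in the same groups. The part of either in the result was otherwise not tested. The male call was lost without PSD with restraint mouse 1 (adjusted p = 0.0622). Among restrained mice, those with prior PSD were higher by 0.61 ± 0.10 (adjusted p = 0.00462), and the 7 mice did not overlap the 6 restrained mice without PSD. Per2 was the only member called in that comparison by the edgeR test, where 0.0951% of all genes were called, all of them higher. DESeq2 also called Cry1 and Nr1d1 there, and a fit with replicate number as a block also called Cry1. The interaction between PSD and restraint was 0.31 ± 0.13 and was not called. The edgeR test called 0% of all genes for the interaction, with 743 at an unadjusted p under 0.05, and DESeq2 called 0.

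Cry1, the other cryptochrome repressor, was at 21.7, 23.4, 23.2 and 24.4 CPM in control females, 22.4, 24.8, 16.1 and 20.3 CPM after restraint, 26.3, 26.6, 29.4 and 30.3 CPM after PSD, and 28.03, 32.5, 27.8 and 29.0 CPM after both. Females with PSD, restrained or not, all lay above control females, but neither change was called in females. The log2 fold change was 0.29 with PSD (adjusted p = 0.152) and 0.35 with PSD and restraint (adjusted p = 0.0735). Male controls were at 17.9, 26.1, 17.7 and 22.7 CPM and overlapped males with PSD and restraint, at 26.5, 24.6 and 25.7 CPM. In all mice PSD with restraint gave 0.320 ± 0.08 with an adjusted p of 0.0139, which passed the p threshold but lay just under the size limit, so Cry1 was not called. It crossed the size limit in 7 of 28 leave-one-out fits. Per3, the third Period gene, was not called in any treatment comparison, with 0.19 ± 0.10 for PSD with restraint in all mice.

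The activators showed no call in any comparison. Clock ranged from 54.2 to 75.0 CPM and Arntl from 14.3 to 25.7 CPM over the 28 mice. In all mice PSD with restraint gave 0.00 ± 0.05 for Clock (interval -0.10 to 0.10) and -0.04 ± 0.10 for Arntl (interval -0.24 to 0.16). For Clock this interval leaves out changes of the size seen in Per2.

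Nr1d1, which encodes the repressor REV-ERBα, was the only member called lower after a treatment. Controls were at 35.0, 20.9, 24.6 and 25.5 CPM in females and at 22.3, 22.3, 27.7 and 23.9 CPM in males. After PSD with restraint it was at 16.9, 19.4, 20.4 and 19.7 CPM in females and at 17.8, 17.7 and 15.9 CPM in males. All 7 lay below all 8 controls, and in all mice the log2 fold change was -0.47 ± 0.10 (adjusted p = 0.00272). Within each sex the values of -0.46 ± 0.14 in females (adjusted p = 0.0841) and -0.48 ± 0.13 in males (adjusted p = 0.0775) were not called. Under DESeq2 they were called in both, at -0.38 in females (adjusted p = 0.027) and -0.36 in males (adjusted p = 0.0187). The male value was also called with only the groups compared (adjusted p = 0.0428) and without male PSD mouse 2 (adjusted p = 0.0493).

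Nr1d1 after restraint alone was at 21.7, 25.1, 28.8 and 20.5 CPM in females and at 20.9 and 28.6 CPM in males, which overlapped the controls. After PSD alone it was at 23.1, 27.7, 22.2 and 21.2 CPM in females and at 18.9, 24.4 and 18.2 CPM in males, with -0.19 ± 0.10 in all mice (adjusted p = 0.302). Restrained mice with prior PSD lay below restrained mice without it, but the difference of -0.39 ± 0.11 was not called (adjusted p = 0.156). It was called under DESeq2 (adjusted p = 0.0493). The related receptor gene Nr1d2 (118 to 163 CPM over all mice) gave 0.01 ± 0.06 for PSD with restraint (interval -0.12 to 0.13). Dbp, the D-box activator, ranged from 35.3 to 70.6 CPM and gave -0.04 ± 0.12 (interval -0.29 to 0.21).

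**Figure D2:**
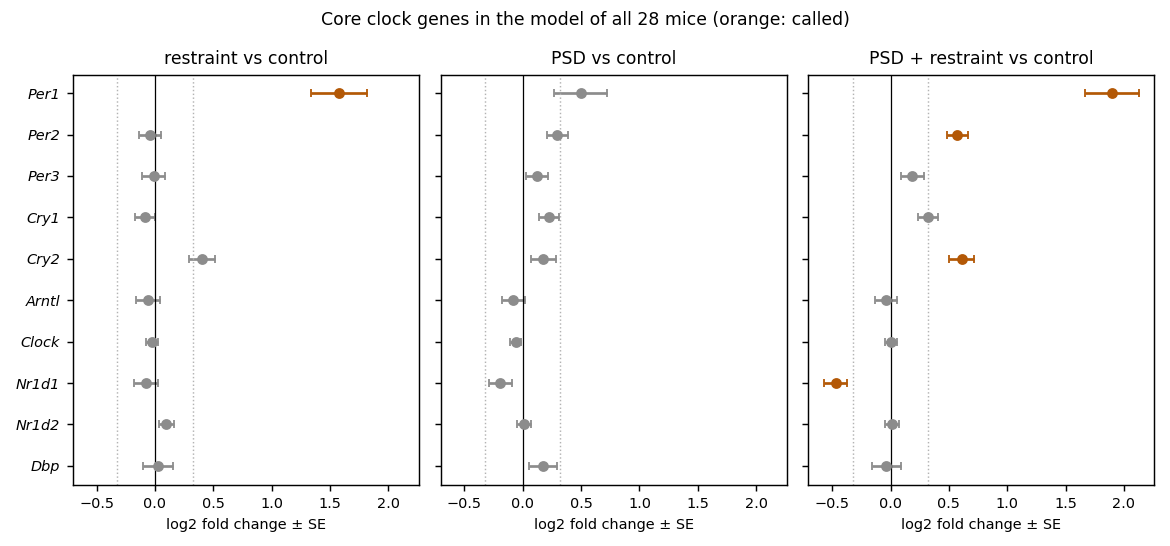
Log2 fold change ± SE of the 10 members against home cage controls in the model of all 28 mice, with dotted lines at the size limit of 0.32 in either direction and orange points for called members. Per1 is called after restraint (1.58), no member after PSD, and Per1, Per2, Cry2 and Nr1d1 (-0.47) after PSD with restraint.

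The counts of members were read against the share of all genes called. In all mice, PSD with restraint called 4 of 10 members (3 higher and 1 lower) where 5.46% of all genes were called, with a median log2 fold change of 0.10 over the members and 0.00 over all genes. PSD alone called none of the 10 in all mice (0.671% of all genes), in females (0.0277%) or in males (0.00547%). In females PSD with restraint called Per1, Per2 and Cry2 (2.2% of all genes) and restraint within PSD called Per1 and Cry2 (0.941%). In males PSD with restraint called Per1 and Per2 (2.56%) and restraint within PSD called none (0.285%). In all mice restraint within PSD called Per1 and Cry2 (2.01%). Comparisons against home cage share the same controls and are not independent.

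Between the sexes, Per3 was the only 1 of the 10 members called, which is near the share of all genes called. Control males were at 178, 152, 187 and 157 CPM and control females at 140, 99.3, 155 and 96.8 CPM. The female with the highest level lay above the male with the lowest. In home cage mice the log2 difference of females from males was -0.45 ± 0.13 (adjusted p = 0.0203, where 10.7% of all genes were called). That call was lost without female control mouse 2, female control mouse 4, male control mouse 1 or male control mouse 3, with adjusted p up to 0.0956. Over all mice the difference was -0.40 ± 0.07 (adjusted p = 6.6e-05, with 14.9% of all genes called) and held in 28 of 28 leave-one-out fits. Cry2 (-0.26 ± 0.08, adjusted p = 0.0101) and Nr1d2 (-0.14 ± 0.05, adjusted p = 0.0157) were lower in females below the size limit.

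No member was called for a sex difference of its response. The edgeR test called 0% of all genes for the sex difference of the response to restraint (803 at an unadjusted p under 0.05, DESeq2 0), to PSD (2039, DESeq2 18) and to PSD with restraint (1363, DESeq2 10). For PSD with restraint the sex difference of the response was 0.13 ± 0.40 for Per1 (interval -0.69 to 0.95) and -0.01 ± 0.19 for Per2 (interval -0.40 to 0.38).

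Members also varied together among mice of the same group. After the group mean of log2 CPM was removed, the 45 pairs of members were correlated over the 28 mice, with p-values from 100000 permutations of mice within groups. Per1 and Cry2 gave Pearson's r = 0.887 (p = 9e-05, adjusted p = 0.00405) and Spearman's rho = 0.808 (adjusted p = 0.00405). The 2 mice farthest from the median of Per1 were male PSD mice 2 and 3. Without them r was 0.828, with the group means left as they were. Male PSD mouse 3 and male control mouse 1 were highest for both genes relative to their groups, and the control mouse stayed in that value. Per3 and Nr1d2 gave r = 0.782 (adjusted p = 0.0048, rho = 0.795 with adjusted p = 0.00652, and 0.826 without the 2 farthest mice). Nr1d2 and Dbp gave r = 0.712 (adjusted p = 0.0048, rho = 0.671 with adjusted p = 0.0118, and 0.681 without the 2 farthest mice). These 3 pairs were the only ones past the adjusted threshold by Pearson's r. Cry1 and Arntl (r = 0.687, adjusted p = 0.0575) and Per3 and Dbp (r = 0.599, adjusted p = 0.0575) passed by rank (adjusted p = 0.0289 for both). All pairs share a library and its depth.

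**Figure D3:**
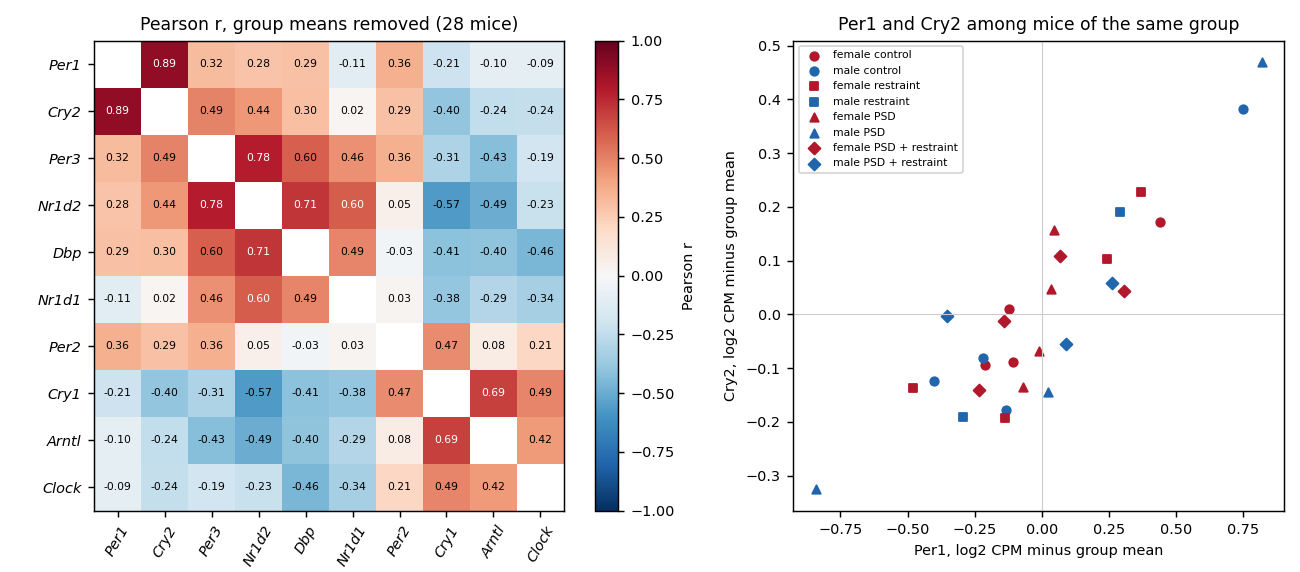
Left, Pearson's r between members over 28 mice after removal of group means (color scale from -1 to 1). Right, Per1 against Cry2 as log2 CPM minus the group mean, 1 point per mouse with color for sex and shape for treatment, where r is 0.887.

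The genes whose log2 CPM was most like that of 3 members were found among 15461 genes by Pearson's r over the 28 mice, with the mean of each sex removed. This is a description that includes the treatment differences. The closest to Per1 were Slc25a25 (r = 0.980), Nr4a3 (0.978), Coq10b (0.965), Nr4a2 (0.962) and Dos (0.955). Likeness was lower for Nr1d1, led by Zbtb5 (0.758), Atp5sl (0.757) and Wash1 (0.752), and for Arntl, led by 2810403A07Rik (0.715) and Pdcd6ip (0.699).

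Of 25 other clock pathway genes, all tested, 4 were called higher and none lower after PSD with restraint in all mice, with a median log2 fold change of 0.11, where 5.46% of all genes were called. Nfil3, a repressor that competes with DBP for D-boxes, was at 11.5 to 13.5 CPM in control females and at 10.8 to 15.1 CPM in control males. It reached 22.4 to 46.1 CPM in females and 23.6 to 41.7 CPM in males after PSD with restraint, above every control, with a log2 fold change of 1.33 ± 0.16 (adjusted p = 2.07e-06). Restraint alone raised Nfil3 by 0.83 ± 0.16 (adjusted p = 0.00407), the only one of the 25 called there (1.14% of all genes).

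Usp2, a deubiquitinase of clock proteins, rose by 0.58 ± 0.09 after PSD with restraint (adjusted p = 0.000127) and by 0.50 ± 0.10 with restraint within PSD (adjusted p = 0.00214). It was at 38.5 to 65.6 CPM in control females and 52.8 to 58.6 CPM in control males, all below the 68.4 to 86.4 CPM of females and 71.8 to 85.2 CPM of males with PSD and restraint. Hlf, a relative of Dbp, rose by 0.51 ± 0.07 after PSD with restraint (adjusted p = 3.7e-05). Its levels overlapped in males, with 43.9 to 54.6 CPM in controls and 49.6 to 69.0 CPM after PSD with restraint, but not in females (37.9 to 46.0 and 64.2 to 71.9 CPM). By sex, 2 of the 25 were higher and 2 lower in females, a share near the 14.9% of all genes called. Among them were the kinase gene Gsk3b (0.35 ± 0.04, adjusted p = 1.49e-08) and the nuclear receptor gene Rora (-0.40 ± 0.06, adjusted p = 2.2e-06).

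**Figure D4:**
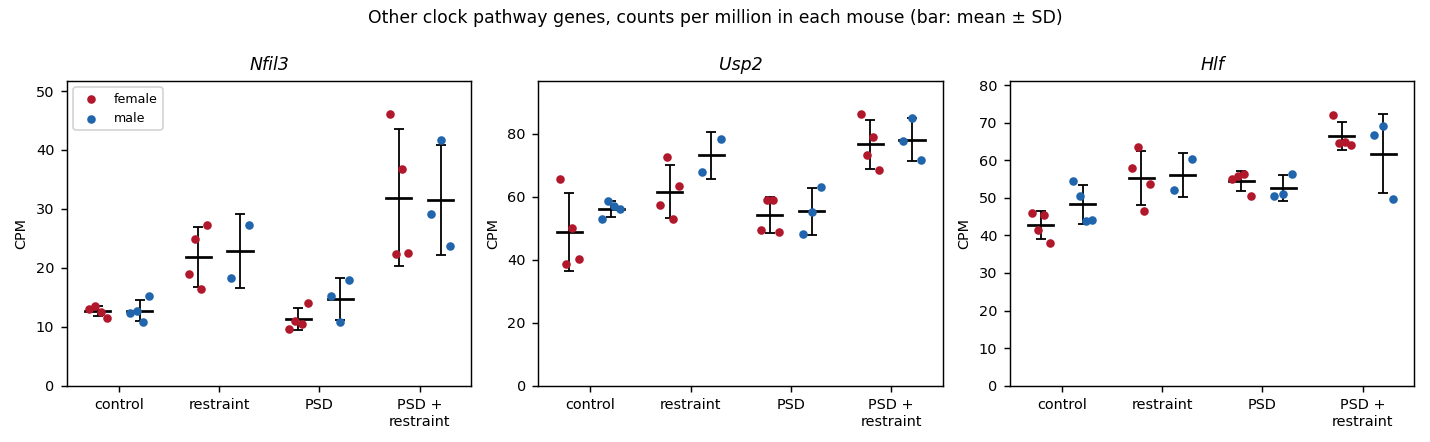
CPM of Nfil3, Usp2 and Hlf (linear axis from 0) in each mouse by treatment, red for females and blue for males, with bars for the group mean ± SD. Nfil3 lies at 10.8 to 15.1 CPM in controls and at 22.4 to 46.1 CPM after PSD with restraint.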

How the data were processed

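Whole pituitary mRNA was sequenced with a stranded kit. Per the labels and methods, the authors aligned reads with MapSplice to mm10, counted them per gene with HTSeq 0.9.1 (UCSC gene models, intersection-nonempty mode) and deposited raw counts, with normalized counts made with DESeq2 1.16.1 that were not used here. The strand setting of the counting was not given in the sources used here. Counts were tested in R 4.3.3 with edgeR 4.0.16 (TMM, filterByExpr, quasi-likelihood test, Benjamini-Hochberg over all genes tested), within each sex (PSD, restraint and their interaction), in all mice with sex added, and as 8 group means for sex differences. A gene was called at an adjusted p of at most 0.05 and an absolute log2 fold change of at least 0.322. SE is the absolute log2 fold change over the square root of F, and 95% intervals use its t distribution. CPM used TMM library sizes, and log2 CPM a prior count of 2. Exon lengths came from GENCODE, not the authors' gene models. Replicates are separate mice, and total counts are given in the report. The paper states that mice were housed by sex and that cage mates shared a PSD tank. Which mice shared a cage or tank was not given in the sources used here, so the tests treated each mouse as independent. The members and gene lists were chosen with earlier results of these data known. Named genes were all members, the 5 genes most like Per1, Nr1d1 and Arntl, and the 6 other clock genes with the smallest p, of which 1 is not reported here. Alternatives were DESeq2 1.42.0, its size factors, other filters, no size limit, a replicate block, tissue scores, only the groups compared, and leaving out each mouse. Scripts were tested on simulated data.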

Additional observations from a re-analysis of the deposited data

Results flagged for a closer look

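In 50 sets of 4 mice (a member in a group of 4), the highest or lowest mouse was set against the other 3 by Dixon's criterion, which chance passes in about 1 in 20, or 2.5 of these. It was met 4 times. Per1 in female control mouse 1 was at 89.954 CPM, where the others were at 57.2 to 61.6 CPM. Per1 in male control mouse 1 was at 109.36 CPM, where the others were at 49.1 to 59.2 CPM. The same mouse was at 85.99 CPM for Cry2, where the others were at 58.3 to 62.3 CPM, and it was the gland with the lowest neurointermediate lobe markers, whose part was not tested. Dbp in female PSD mouse 1, the gland with the highest forebrain markers, was at 56.255 CPM, where the others were at 64.0 to 65.6 CPM.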

How the results depend on the processing

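Of 5990 recomputed log2 fold changes of members, 5919 stayed called or uncalled, 36 lost a call, 35 gained one and 0 called values changed sign. Leaving out each mouse in turn gave 1 to 2 members called for restraint in females, 1 to 2 for restraint in all mice, 1 to 2 for restraint within PSD in all mice, 1 to 2 for prior PSD among restrained mice, 2 to 4 for PSD with restraint in females, 0 to 3 for PSD with restraint in males, 4 to 5 for PSD with restraint in all mice, 0 to 1 for home cage sex, and 3 to 6 correlated pairs. DESeq2 called 2 members for restraint in all mice, 3 for prior PSD among restrained mice, and 4 in females and 3 in males for PSD with restraint. The neurointermediate lobe score as a covariate gave 2 for restraint in all mice, and it and the forebrain score each gave 2 for PSD with restraint in females. With no size limit, 3 members were called by sex. Fits of only the groups compared called 1 for restraint in females and 4 for PSD with restraint in males. In 2 alternatives chosen after seeing the data, leaving out the 2 glands apart in marker genes gave 2 for restraint in all mice and 0 for home cage sex, and leaving out the 2 PSD mice with high immediate early genes gave 1 for restraint in females and 2 for restraint in all mice. The cause of these changes was not tested. Same-numbered mice of different groups had a median r of -0.00486 over 87 pairs, 24 of them over 0.1. Differently numbered mice had 0.0069 over 254 pairs, 72 of them over 0.1. Whether a number marks a shared cage or tank was not tested. The replicate block called 1 member for restraint in females, 2 for PSD with restraint in females (Per2 lost, adjusted p = 0.0619), 1 for PSD with restraint in males and 2 for prior PSD among restrained mice. Counts over all genes, here with the reported count in parentheses, moved by more than 1.5 times as follows, with the range over fits without 1 mouse last. Restraint in females (98) gave 190 with DESeq2, 54 with only the groups compared, and 45 to 178. PSD in females (5) gave 394 with DESeq2, 14 with at least 10 counts per mouse, 24 with the block, 2 with the neurointermediate score, 0 with only the groups compared or without the 2 PSD mice, and 0 to 557. PSD with restraint in females (398) gave 627 with DESeq2, 79 with the neurointermediate score, and 158 to 613. Restraint within PSD in females (170) gave 275 with DESeq2, 103 without the 2 PSD mice, and 88 to 239. Restraint in males (54) gave 99 with DESeq2, 4 with the block, and 19 to 63. PSD in males (1) gave 72 with DESeq2, 11 with no filter, 2 with the block, 9 with the neurointermediate score, 2 with the forebrain score, 7 without the 2 glands, 0 with only the groups compared or without the 2 PSD mice, and 0 to 7. PSD with restraint in males (467) gave 147 with the block, and 162 to 528. Restraint within PSD in males (52) gave 171 with DESeq2, 6 with the block, 114 with the neurointermediate score, 92 without the 2 glands, 27 with only the groups compared, and 3 to 92. PSD in all mice (127) gave 237 with DESeq2, 40 with the block, 35 with the neurointermediate score, 61 with the forebrain score, 45 without the 2 glands, 23 without the 2 PSD mice, and 31 to 227. Prior PSD among restrained mice (18) gave 54 with DESeq2, 10 with the forebrain score, and 7 to 58. With no size limit PSD with restraint (1033) gave 2064, restraint within PSD (381) 586 and sex (2822) 6510 in all mice. The sex difference of the response to PSD (0) gave 18 with DESeq2, 1 with at least 10 counts per mouse, 2 with the neurointermediate score, and 0 to 4. That to PSD with restraint (0) gave 10 with DESeq2, 3 with the neurointermediate score, and 0 to 2.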
